A study of Mus musculus with 60 samples.

Results

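The 40 genes described here encode proteins that carry a cell from G2 through mitosis. They were taken by name from 1 list, and each was read through its annotated probe set, the group of short probes for 1 transcript, with the highest mean over the arrays. Of the 40, 39 had such a probe set and passed the filter on low signals, among 18194 genes with a probe set and 14513 genes tested. Ccnb1, the gene of cyclin B1, had no probe set under its own name in the table used here, so that it has no value below. By role, 6 of the listed genes are cyclins, CDK1 and its activating phosphatases, 4 are mitotic kinases, 5 belong to the spindle checkpoint and 5 to the centromere and kinetochore. A further 2 are partners of Aurora B in the chromosomal passenger complex, 7 are spindle motors and midzone proteins, 6 shape or coat chromosomes, 4 serve proteolysis at anaphase, and the last is the transcription factor Foxm1.

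The arrays followed primary hepatocytes, the main metabolic cells of the liver, taken from male C57BL/6N mice aged 8 to 12 weeks. Each culture came from 1 animal or from a pool of up to 3, was plated on collagen and was kept without serum for 24 h, and all groups received 100 nM dexamethasone. Hepatocyte growth factor (recombinant mouse HGF, 40 ng/ml), interleukin 6 (recombinant human IL-6, 40 ng/ml), both together or nothing was then added, and RNA was taken at 7 times after that (0.5 h, 2 h, 4 h, 8 h, 16 h, 24 h, 32 h). Each of these 28 groups has 2 arrays, and unstimulated cells at 0 h have 4, so that 60 arrays fall into 29 groups. The series asks how the 2 signals combine in the control of hepatocyte growth.

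Genes of this kind are read in a burst late in the cell cycle. Cyclin B with CDK1 opens mitosis, the checkpoint holds the cell until every chromosome is attached, and the anaphase-promoting complex with CDC20 then destroys cyclin B and securin. In resting cells most of these genes are held silent by the DREAM complex, which binds the CHR element near their start sites, and B-MYB and FoxM1 drive them in G2. Adult hepatocytes rarely divide, but they re-enter the cycle after partial hepatectomy or when explanted, and HGF is a classical hepatocyte mitogen, while IL-6 is best known for the acute phase response.

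Values are log2 intensities, and a difference of 1 on this scale is a factor of 2. On each array 32 to 39 of the 39 measured genes lay above the 40th percentile of all probe sets, which was 4.28 to 4.40. On all 60 arrays 29 genes exceeded it. Cdc25b did so on 8 arrays, Cenpf on 45, Cdc25c on 49, Nuf2 on 51, Bub1 on 52, Espl1 on 53, Ccnb2 on 55, and Cenpe, Kif2c and Kif11 on 59 each. The probe sets of Aurkb, Cdc20, Incenp, Kif2c and Ncaph carry the maker's suffix for probes that match other transcripts too, so their values can include signal of relatives.

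Some features of the arrays bear on all that follows. The dap labelling control separates 10 early unstimulated arrays, hours 0 to 4, on which its 3′ probes exceeded its 5′ probes by 1.22 to 1.48, from the other 50, on which they did by 2.62 to 3.72. Arms are therefore set against unstimulated cells from 8 h on. From 8 h on, another control, bioB, still read 5.30 to 7.01 on stimulated and 8.09 to 8.35 on unstimulated arrays, so that stimulus and hybridisation cannot be told apart. Replicate 1 of IL-6 at 24 h had the highest dap difference, 3.72, and a 3′ excess of 0.754 for Gapdh. For HGF at 32 h the members averaged 0.60 higher in replicate 1 than in replicate 2, with 36 of 39 higher, while the median gap over all genes was 0.0059. For IL-6 plus HGF at 16 h they averaged 0.31 higher in replicate 2, with 35 of 39 higher. In no other group did the mean gap exceed 0.16. Hepatocyte markers, 9 of 9, were above the 40th percentile on every array, and their mean per array was 8.97 to 11.5 from 8 h on. Markers of other liver cells had list means in those hours of 5.22 to 5.77 for Kupffer cells, 5.36 to 5.96 for endothelium, 4.89 to 5.27 for stellate cells, 5.22 to 5.86 for cholangiocytes and 3.95 to 4.34 for lymphocytes and neutrophils. On every array 6 of 8 Kupffer cell markers and 6 of 7 endothelial markers were above the percentile. So were 3 of 8 stellate cell markers, 3 of 5 cholangiocyte markers and 1 of 5 lymphocyte and neutrophil markers. Ptprc, Lrat, Cftr, Nkg7 and S100a8 were above the percentile on none, and the part of other cells in the results was not tested. In RNA from whole dishes, fewer cells of a kind and less RNA per cell cannot be told apart.

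Every arm, the unstimulated one included, ran through the same wave: most of the 39 genes were low at the start, highest at 16 or 24 h and falling again by 32 h. In HGF cultures 36 of 39 were higher at 16 h than at 0.5 h, where 24.7% of all genes were, and their median fold was 2.65. In IL-6 cultures 37 were, against 24.4% of all genes, with a median fold of 3.2. With both stimuli 37 were, against 26.4%, with a median fold of 2.51. Between these hours bioB fell from 8.35 and 8.33 to 6.13 and 6.04 under HGF, and from 6.98 and 6.93 to 5.47 and 5.84 under IL-6. With both stimuli it fell from 5.86 and 6.01 to 5.63 and 5.76. Hour and hybridisation therefore cannot be told apart in these stimulated arms. In unstimulated cells, whose labelling class changed between 4 and 8 h, 33 were higher at 4 h than at 0 h, against 8.46% of all genes, and 28 were higher at 16 h than at 8 h, against 11.5%. These tests are moderated tests in limma, a linear model over all arrays, with p-values adjusted over the 14513 genes and a threshold of 0.05. Over the hours from 8 h on, limma's F-test found a change with time for 33 of 39 genes in HGF cultures, 37 in IL-6 cultures, 35 with both stimuli and 36 in unstimulated cells. Of all genes, 63.4%, 65.2%, 68.1% and 65.7% changed in these arms, in the same order. Under IL-6 bioB read 7.01 and 6.999 at 8 h and 5.47 to 5.97 at the later hours. Under HGF it read 6.08 and 6.21 at 8 h and 6.89 and 6.84 at 32 h, so that the same limit holds for the changes there.

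**Figure D1:**
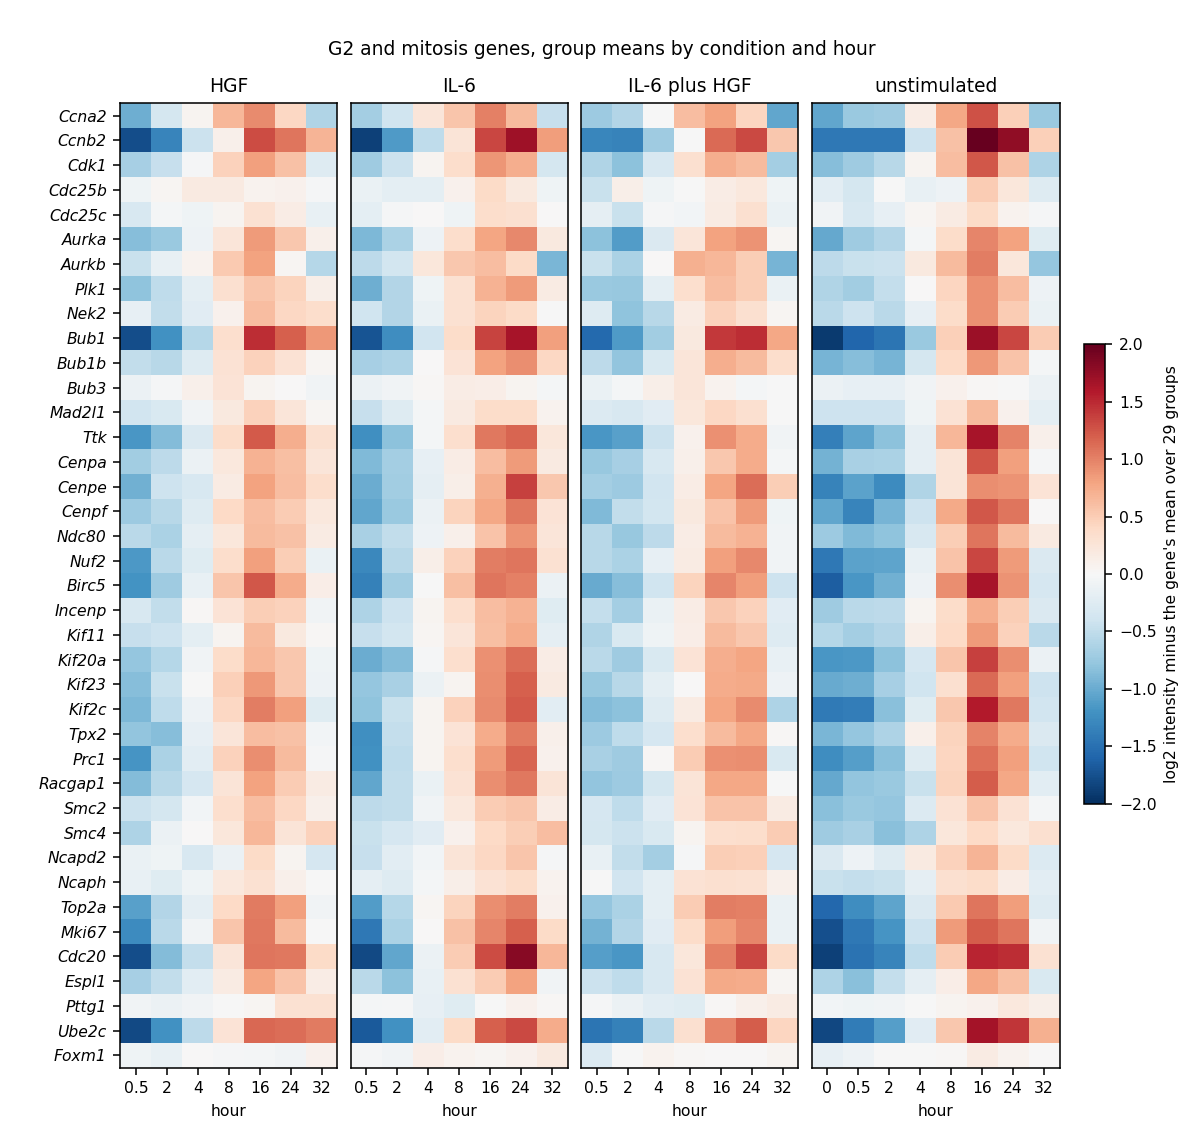
Heat map of the 39 measured genes (rows, by role) over the 29 groups (columns, by arm and hour). Colour gives the group mean minus the gene's mean over the 29 groups in log2 units, on a scale from -2 to 2, and most rows pass from low at 0 to 2 h to high at 16 and 24 h in all 4 arms.

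**Figure D2:**
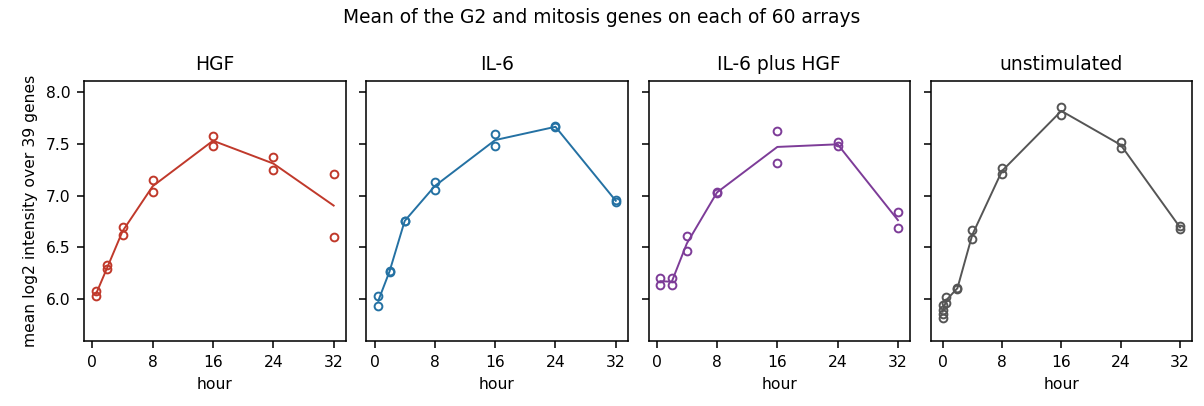
Mean log2 intensity of the 39 genes on each array (points) against hours after stimulation, with a line through the group means of each arm. At 32 h the 2 HGF arrays stand at 7.20 and 6.60, further apart than the 2 arrays of any other group.

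The mean over the 39 genes on single arrays shows the shape of the wave. In HGF cultures it was 7.04 and 7.14 at 8 h, 7.48 and 7.57 at 16 h, 7.37 and 7.25 at 24 h, and 7.20 and 6.60 at 32 h. In IL-6 cultures it was 7.47 and 7.59 at 16 h, 7.66 and 7.66 at 24 h, and 6.94 and 6.96 at 32 h. The IL-6 arm thus had its highest arrays at 24 h, while the HGF arm had them at 16 h. With both stimuli the mean was 7.31 and 7.62 at 16 h, 7.47 and 7.51 at 24 h, and 6.84 and 6.69 at 32 h. In unstimulated cells it was 5.82 to 5.95 at 0 h, 7.20 and 7.27 at 8 h, 7.78 and 7.85 at 16 h, 7.51 and 7.46 at 24 h, and 6.70 and 6.68 at 32 h. At 16 h both unstimulated arrays lay above all 6 stimulated ones, and at 24 h both IL-6 arrays lay above the other 6. Across genes, group means were highest at 16 h for 35 genes under HGF and for 37 in unstimulated cells, but at 24 h for 28 genes under IL-6. Under both stimuli they were highest at 24 h for 19 genes and at 16 h for 15. In that arm replicate 2 at 16 h stood above both arrays at 24 h, and replicate 1 below them.

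The genes moved closely together. Over the 60 arrays the median of the 741 pairwise correlations was 0.889, a description of arrays that share culture time, scaling and labelling. The genes least like the rest were Pttg1, with a median r of 0.356 to the others, Foxm1 with 0.450, Cdc25b and Bub3 with 0.561, Cdc25c with 0.687 and Aurkb with 0.699. Foxm1, the factor that drives the group in G2, stayed between 5.97 and 6.58 on all arrays, and its smallest adjusted p over the 11 F-tests was 0.314. The signal of this chosen probe set was thus nearly level while the genes that Foxm1 is known to drive changed. Other Foxm1 probe sets above the percentile on all 60 arrays moved more in unstimulated cells. They gave 0.29 ± 0.16 and 0.19 ± 0.10 for 16 h minus 8 h, against 0.14 for the chosen one. For 32 h minus 8 h they gave -0.23 and -0.15, against -0.02.

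Because the genes moved together, their start sites were read for the elements named above. Windows from 250 bases before to 50 bases after the start (RefSeq, GRCm38.p6) were found for 32 of the 40 genes. The CHR element (TTTGAA or, on the other strand, TTCAAA) stood in the windows of 22 of these 32 genes, 68.75%, against 20.23% of all 27025 genes with a window and 13.89% of 36 DNA replication genes. The CCAAT box (CCAAT or ATTGG) stood in 78.12%, against 41.06% of all genes and 66.67% of the DNA replication genes. Both stood together in 62.5%, against 8.97% of all genes. The E2F-type sequence TTTGGCGC or its complement GCGCCAAA was in 3.12%, against 0.58% of all genes and 16.67% of the DNA replication genes. Of the 24 windows with a CHR, some genes having more than 1 start, 20 held one within 60 bases before to 50 after the start. A match describes letters and is no evidence of binding.

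The 120 bases upstream of the start are shown for 6 of the genes, 5 with the elements and Pttg1 with neither. Each is given on its own strand from 5′ to 3′, with CHR and CCAAT letters of either strand in capitals.
Cdk1, chr10:69352913-69353032, minus strand: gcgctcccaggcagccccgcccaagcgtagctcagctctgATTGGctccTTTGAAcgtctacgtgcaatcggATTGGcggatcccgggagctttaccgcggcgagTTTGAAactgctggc
Ccnb2, chr9:70421555-70421674, minus strand: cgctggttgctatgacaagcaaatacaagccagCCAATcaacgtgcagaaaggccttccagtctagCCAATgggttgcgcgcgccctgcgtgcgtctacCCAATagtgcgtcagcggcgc
Cdc20, chr4:118437344-118437463, minus strand: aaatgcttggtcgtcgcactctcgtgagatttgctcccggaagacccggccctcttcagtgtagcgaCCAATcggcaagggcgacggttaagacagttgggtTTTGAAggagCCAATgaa
Kif11, chr19:37376262-37376381, plus strand: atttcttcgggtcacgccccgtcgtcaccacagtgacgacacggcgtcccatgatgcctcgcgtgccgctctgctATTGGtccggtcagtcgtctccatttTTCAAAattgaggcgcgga
Top2a, chr11:99024190-99024309, minus strand: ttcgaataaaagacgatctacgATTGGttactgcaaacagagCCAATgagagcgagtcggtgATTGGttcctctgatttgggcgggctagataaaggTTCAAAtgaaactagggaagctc
Pttg1, chr11:43425982-43426101, minus strand: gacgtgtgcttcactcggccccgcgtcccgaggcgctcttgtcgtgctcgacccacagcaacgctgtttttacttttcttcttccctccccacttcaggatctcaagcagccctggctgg
Cdk1 shows CHR and CCAAT letters side by side, and Ccnb2 shows 3 CCAAT boxes here while its CHR near the start begins at base 5 after the start and so outside the print. Like the windows of Birc5, Mad2l1, Ncaph and Nuf2, that of Pttg1 holds neither element.

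Among the cyclins and their kinase, the wave was steep for Ccna2 and Cdk1, which serve S phase and G2 and the entry into mitosis. In HGF cultures Ccna2 read 8.37 and 8.50 at 16 h, 7.89 and 7.90 at 24 h, and 7.23 and 6.55 at 32 h. In unstimulated cells it read 8.72 and 8.79 at 16 h, 7.99 and 7.94 at 24 h, and 6.80 and 6.69 at 32 h. Both arms thus dropped stepwise, and Ccna2 was the 1 gene whose fall between 16 and 24 h passed the threshold in every arm. Its differences were -0.55 ± 0.15 under HGF, -0.39 ± 0.15 under IL-6, -0.38 ± 0.15 under both and -0.79 ± 0.15 in unstimulated cells (log2, ± SE, adjusted p = 0.00288, 0.036, 0.0454 and 1.96e-05). Cdk1 read 8.45 and 8.55 under HGF, 8.50 and 8.62 under IL-6, 8.23 and 8.59 under both and 8.94 and 8.90 without stimulus at 16 h. By 32 h it read 7.91 and 6.93, 7.36 and 7.31, 7.10 and 6.92, and 6.97 and 7.15 in the same arms. All of these arrays but the first HGF one therefore stood more than 1 log2 unit below the mean of their arm at 16 h, and the difference of 32 h minus 8 h in unstimulated cells was -1.24 ± 0.14 (adjusted p = 6.05e-15). Cdc25b, a CDK1-activating phosphatase, read 4.67 and 4.59 in unstimulated cells at 16 h, 2 of its 8 arrays above the percentile, and Cdc25c stayed between 4.01 and 5.18 on all arrays.

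Markers of dividing cells and of mitosis followed the same course. Mki67, which coats mitotic chromosomes, read 8.47 and 8.51 under IL-6, 8.02 and 7.82 under HGF, 8.26 and 8.29 under both and 8.33 and 8.40 without stimulus at 24 h. The HGF arrays were the lowest of these 8. Top2a, the enzyme that untangles sister chromatids, read 8.79 and 8.88 under HGF, 8.65 and 8.80 under IL-6, 8.66 and 9.001 under both and 8.91 and 8.83 without stimulus at 16 h, so that the arms overlapped. In no comparison between arms did Top2a have an adjusted p below 0.161, and Plk1, the kinase of spindle and centrosome maturation, had none below 0.145. Plk1 nevertheless changed with time, reading 6.95 and 7.21 under IL-6 at 24 h against 6.34 and 6.45 at 32 h, and 7.06 and 7.21 in unstimulated cells at 16 h against 6.23 and 6.02 at 32 h. Aurkb, the kinase of the passenger complex, fell between 8 and 32 h, with differences of -1.0987 ± 0.15 under HGF, -1.45 ± 0.15 under IL-6, -1.64 ± 0.15 under both and -1.42 ± 0.15 without stimulus (adjusted p = 1.92e-10, 1.19e-12, 7.37e-14 and 1.05e-13).

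The descent between 24 and 32 h was shared. Lower at 32 h were 20 genes under HGF (17.8% of all genes), 33 under IL-6 (20.9%), 33 under both stimuli (19.6%) and 34 in unstimulated cells (17.4%). The median folds were 0.759 under HGF, 0.581 under IL-6, 0.584 under both and 0.540 in unstimulated cells. Between these hours bioB rose under HGF, from 5.99 and 5.86 to 6.89 and 6.84, and fell under IL-6, from 5.97 and 5.90 to 5.65 and 5.67. For HGF and for IL-6, hour and hybridisation therefore cannot be told apart here. The HGF count rests on its 2 unlike arrays: without replicate 1 at 32 h it was 32 genes with a median difference of -0.74, without replicate 2 it was 5 genes with a median of -0.10, and without replicate 1 of HGF at 24 h 13 genes passed.

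HGF against unstimulated cells asks what the mitogen added to a wave that ran without it. Of the 39 genes, 12 were lower at the hour of their largest difference and 7 were higher, while 20 did not pass the F-test over 8, 16, 24 and 32 h. Of all genes 27.9% were lower and 27.2% higher. The lower calls fell mostly at 16 h: there alone 12 genes were lower with HGF, against 18.5% of all genes, and the median difference of the 39 was -0.29, against -0.01 for all genes. At 32 h alone 8 genes were higher, against 10.1% of all genes, with a median of 0.21. The comparisons with unstimulated cells share the same control arrays.

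Ccnb2, cyclin B2, had the smallest adjusted p. It read 7.16 and 7.35 with HGF at 16 h, against 8.05 and 7.87 in unstimulated cells, and 7.03 and 7.01 at 24 h, against 7.76 and 7.68. At both hours the HGF arrays lay below the unstimulated ones, and the difference at 16 h was -0.71 ± 0.17 (adjusted p = 1.71e-05), a fold of 0.613. Kif20a, a kinesin of the cleavage furrow, read 6.65 and 6.86 against 7.41 and 7.51 at 16 h, a difference of -0.70 ± 0.15 (adjusted p = 0.000383). Cenpf, a kinetochore protein, read 5.59 and 5.73 against 6.08 and 6.47 (-0.62 ± 0.18, adjusted p = 0.00108). Cenpa, the centromeric histone, read 7.38 and 7.46 against 7.87 and 8.12 (-0.57 ± 0.15, adjusted p = 0.00337). For these 3 genes the groups did not overlap. Ube2c, which feeds ubiquitin to the anaphase-promoting complex, read 8.73 and 8.95 against 9.36 and 9.37 (-0.53 ± 0.15, adjusted p = 0.00108), and Racgap1, which sets the division plane, 7.60 and 7.70 against 8.104 and 8.02 (-0.41 ± 0.12, adjusted p = 0.000518). Ncapd2, a condensin subunit, was low earlier, with 5.85 and 5.80 under HGF against 6.35 and 6.46 at 8 h (-0.58 ± 0.13, adjusted p = 0.00033). Cdk1 was 0.43 ± 0.14 lower at 16 h (adjusted p = 0.0107), and Mki67, 0.44 ± 0.16 lower at 24 h, did not pass the F-test (adjusted p = 0.0503). Ccna2 and Foxm1 had differences of -0.32 and -0.20 at 16 h and did not pass. The remaining lower genes were Cdc20, Kif2c, Bub1b and the checkpoint kinase Ttk, by 0.40 to 0.56 at 16 h.

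Nek2, a centrosome kinase, was the clearest of the higher genes, with 7.47 and 6.99 under HGF at 32 h against 6.76 and 6.71 in unstimulated cells (0.49 ± 0.11, adjusted p = 5.07e-05). Both HGF arrays lay above both unstimulated ones, but at 16 h the order was turned, with 7.49 and 7.50 against 7.79 and 7.78. Pttg1, securin, read 11.64 and 11.67 against 11.47 and 11.47 at 32 h (0.19 ± 0.05, adjusted p = 0.00938), with close arrays in both groups. For other genes higher at 32 h the 2 HGF arrays lay far apart. Birc5, the survivin subunit of the passenger complex, read 7.74 and 6.66 under HGF against 6.78 and 6.68, and Kif11, the motor that separates the poles, 5.47 and 4.79 against 4.62 and 4.52. Mad2l1 and Kif23 were higher by 0.23 and 0.32 at 32 h, and the checkpoint protein Bub3 by 0.17 at 8 h. Without replicate 1 of HGF at 32 h, 1 gene was higher at 32 h, Pttg1 with 0.20 (adjusted p = 0.0205), 2 were lower, Top2a with -0.33 and Mki67 with -0.42 (adjusted p = 0.0329 and 0.0449), and the median of the 39 genes was -0.11. Without replicate 2, 25 genes were higher and 32 instead of 19 passed the F-test, and without replicate 1 or 2 of the unstimulated cells at 32 h, 2 and 3 were higher. At 16 h the count of 12 lower genes was 4 without HGF replicate 1 and 7 without unstimulated replicate 2. With the mean over all probe sets of a gene, in place of the highest one, 8 of the 19 calls were lost: Nek2, Cenpf and Cenpa (adjusted p = 0.1, 0.0695 and 0.386), Bub1b, Bub3, Ttk, Kif11 and Kif23. That mean also takes in probe sets that failed the filter on low signals. The other probe sets of Kif23, with means of 2.64 and 2.56, and of Ttk, with 2.83, exceeded the percentile on 0 arrays. The part of such probe sets in lost calls, here and below, was not tested. Ttk was also lost with median centring, without a variance trend and with robust variances.

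**Figure D3:**
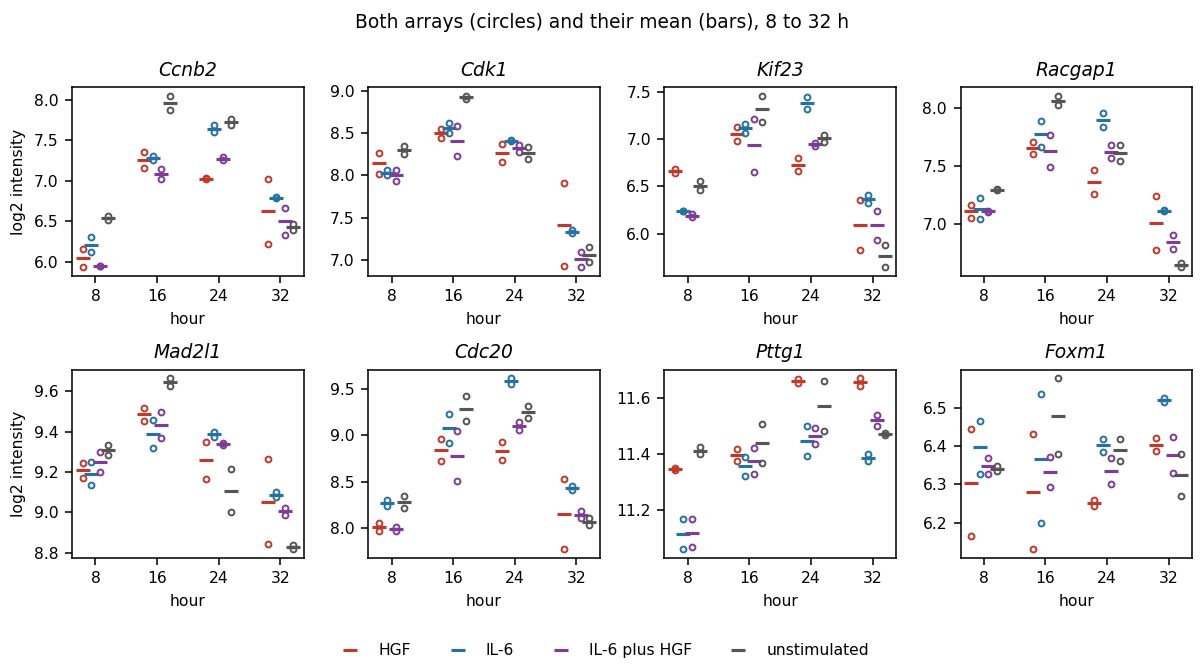
Log2 intensity of 8 genes on single arrays (circles) and the mean of each group (short bars) in the 4 arms from 8 to 32 h, each gene on its own axis. Ccnb2 and Cdk1 show the unstimulated arrays highest at 16 h, Kif23 and Cdc20 the IL-6 arrays highest at 24 h, and Foxm1 values lie within 5.97 and 6.58.

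IL-6 against unstimulated cells gave 12 genes higher, against 18.7% of all genes, and 10 lower, against 23.3%, with 17 that did not pass. The direction depended on the hour. At 16 h 12 genes were lower with IL-6, against 13.9% of all genes, with a median difference of -0.26 over the 39 genes. At 24 h 5 were higher, a share near the 12.6% of all genes, with a median of 0.18. At 32 h 10 were higher, against 9.49%, with a median of 0.27. For all genes the median at 32 h was -0.01.

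The genes higher late included proteins of the central spindle. Kif23, the motor partner of Racgap1, read 6.41 and 6.32 with IL-6 at 32 h against 5.65 and 5.89 in unstimulated cells (0.60 ± 0.13, adjusted p = 9.62e-05). Racgap1 read 7.12 and 7.11 against 6.62 and 6.66 (0.47 ± 0.12, adjusted p = 0.00061), and Prc1, which bundles midzone microtubules, 7.60 and 7.64 against 7.14 and 7.14 (0.49 ± 0.13, adjusted p = 0.00245). In all 3 the IL-6 arrays lay above the unstimulated ones. Ncaph, a condensin subunit, read 8.08 and 7.99 against 7.82 and 7.69 at 32 h (0.28 ± 0.09, adjusted p = 0.00234). Mad2l1, the checkpoint protein that holds CDC20, was higher at 24 h, with 9.37 and 9.40 against 9.22 and 9.0004 (0.28 ± 0.08, adjusted p = 0.000193). It had been lower at 16 h, with 9.32 and 9.46 against 9.63 and 9.67. Mki67 was 0.45 ± 0.16 higher at 32 h, with an adjusted p of 0.0426, and the other higher genes were Smc4, Bub1b, Smc2, Bub3, Cdc20 and Aurka, by 0.12 to 0.46. With Mki67 the call was lost on leaving out IL-6 replicate 2 at 8 h, replicate 1 at 16 h or any array at 24 or 32 h, or any unstimulated array at 8, 16 or 32 h or replicate 1 at 24 h (adjusted p = 0.0508 to 0.143). It was also lost with median centring, without a variance trend and with robust variances (adjusted p = 0.0502, 0.0865 and 0.0952). The mean over all probe sets of a gene ended the calls of Kif23, Prc1 and Mki67 (adjusted p = 0.141, 0.075 and 0.0646) and of Aurka and Bub3. Aurka and Bub3 were also lost with median centring, with no filter or without a variance trend, Aurka with the replicate number as a block or robust variances, and Cdc20 without a trend or with robust variances.

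The lower genes had their largest difference from unstimulated cells at 16 h, except Pttg1. Ccnb2 read 7.30 and 7.26 against 8.05 and 7.87 (-0.68 ± 0.17, adjusted p = 0.00257) and Nek2 7.27 and 7.38 against 7.79 and 7.78 (-0.46 ± 0.11, adjusted p = 0.00339). Pttg1 was low at 8 h, with 11.17 and 11.06 at 8 h against 11.40 and 11.42 (-0.30 ± 0.05, adjusted p = 2.16e-05), the smallest p of the 39 genes here. Cdk1 was 0.36 ± 0.14 lower at 16 h (adjusted p = 0.0239), while Ccna2, Plk1, Top2a and Foxm1 did not pass. Cenpa, Kif2c, Ttk, Birc5, Ndc80 and Kif20a were lower by 0.44 to 0.65 at 16 h. Without replicate 1 of IL-6 at 16 h Nek2 and Cdk1 did not pass (adjusted p = 0.0517 and 0.0715), nor did Cdk1 without unstimulated replicate 2 at 8 h, replicate 1 at 16 h or replicate 1 at 32 h (adjusted p = 0.05, 0.0583 and 0.0563). With the mean over all probe sets Nek2 (adjusted p = 0.834), Ttk, Cenpa and Kif2c did not pass. Without a variance trend Cdk1 and Kif20a were lost, and Cdk1 also with robust variances (adjusted p = 0.0546 and 0.0556 for Cdk1). Single arrays weighed on these counts: the 22 genes passing the F-test were 11 without replicate 1 of IL-6 at 16 h and 14 without replicate 2 of the unstimulated cells at 16 h. Each of those 2 arrays left out gave 5 genes lower at 16 h. At 24 h the count of 5 was 2 and 1 without IL-6 replicate 1 and 2, and 2 and 1 without unstimulated replicate 1 and 2. At 32 h the count of 10 was 4 and 5 without the IL-6 arrays, and 5 and 4 without the unstimulated ones, in that order, with medians of 0.23 to 0.27.

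With both stimuli against unstimulated cells, 18 genes were lower, against 28.7% of all genes, and 4 were higher, against 28.5%, with 17 that did not pass. At 16 h alone 17 were lower, against 18.8% of all genes, with a median of -0.35. At 24 and 32 h the medians of the 39 genes were 0.01 and 0.08.

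Ccnb2 again had the smallest adjusted p, with 7.02 and 7.14 at 16 h against 8.05 and 7.87 (-0.88 ± 0.17, adjusted p = 8.9e-06), a fold of 0.544. Kif2c, a kinesin that takes microtubules apart at kinetochores, read 6.60 and 6.97 against 7.56 and 7.62 (-0.80 ± 0.16, adjusted p = 0.000109). Ttk, the checkpoint kinase MPS1, read 6.67 and 6.97 against 7.62 and 7.49 (-0.74 ± 0.17, adjusted p = 0.000139). All 4 stimulated values of these last 2 genes lay below the unstimulated ones. Cenpa read 7.05 and 7.49 against 7.87 and 8.12 (-0.72 ± 0.15, adjusted p = 0.000901), Ube2c 8.54 and 8.81 against 9.36 and 9.37 (-0.69 ± 0.15, adjusted p = 0.000277), and Birc5 7.86 and 8.23 against 8.68 and 8.76 (-0.68 ± 0.17, adjusted p = 0.00129). Nek2 was 0.45 ± 0.11 lower (adjusted p = 0.000585) and Pttg1, at 8 h, 0.29 ± 0.05 lower (adjusted p = 4.15e-05). Cdk1 fell by 0.51 ± 0.14 and Ccna2 by 0.47 ± 0.15 relative to unstimulated cells at 16 h (adjusted p = 0.00672 and 0.0155), and Mki67 by 0.49 ± 0.16 at 8 h (adjusted p = 0.0189). The 4 higher genes were Bub3 at 8 h, Mad2l1 and Smc2 at 24 h and Ncaph at 32 h, by 0.15 to 0.32, and the remaining lower ones Cenpf, Kif20a, Kif23, Racgap1, Cdc20, Ndc80 and, at 8 h, Ncapd2, by 0.38 to 0.66. Replicate 1 at 16 h was the lower of the 2 arrays: without it 14 genes passed the F-test in place of 22, 7 in place of 17 were lower at 16 h, the median was -0.15, and Cdk1, Ccna2 and Cenpa no longer passed (adjusted p = 0.112, 0.157 and 0.0953). Without replicate 2 of the unstimulated cells at 16 h, 10 genes were lower at that hour and Ccna2 did not pass (adjusted p = 0.0669). Mki67 did not pass without either array of both stimuli at 8 h, replicate 1 at 16 h or unstimulated replicate 2 at 8 h (adjusted p = 0.0523 to 0.0795). With the mean over all probe sets Cenpa and Nek2 (adjusted p = 0.352 and 0.185), Bub3, Cenpf, Kif23, Smc2, Ncapd2 and Ncaph did not pass, and Mki67 did not with robust variances (adjusted p = 0.0503).

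**Figure D4:**
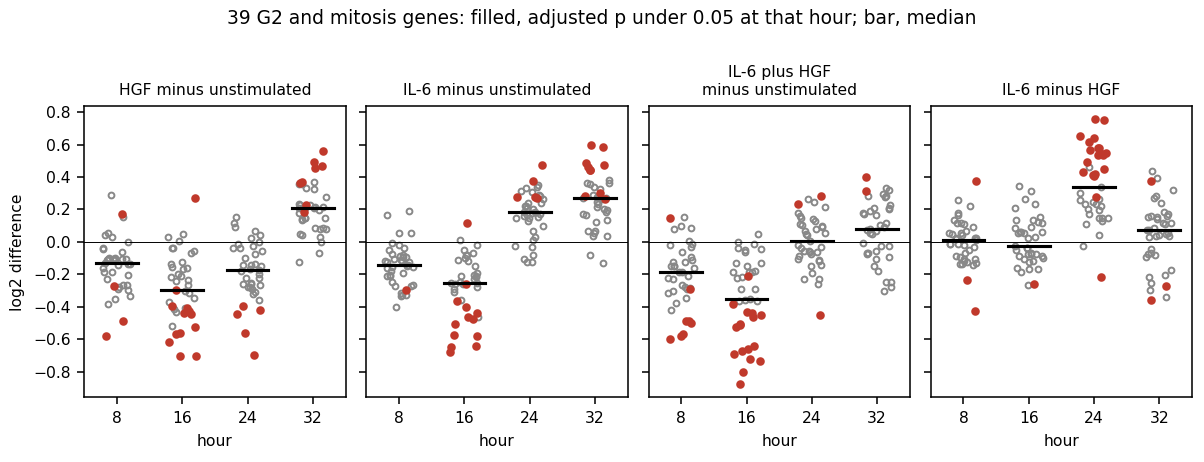
Log2 differences of the 39 genes (points, filled where the adjusted p at that hour is under 0.05, with the median as a bar) by hour, for each stimulus minus unstimulated cells and for IL-6 minus HGF. Against unstimulated cells at 16 h the medians are -0.29 for HGF, -0.26 for IL-6 and -0.35 for both, and at 32 h they are 0.21, 0.27 and 0.08, while for IL-6 minus HGF the median at 24 h is 0.34.

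IL-6 against HGF compares sets of arrays whose bioB ranges overlap with all hours pooled, 5.47 to 7.01 and 5.86 to 6.89. Hour by hour, they overlapped only at 24 h. At 8 h bioB read 7.01 and 6.999 under IL-6 against 6.08 and 6.21 under HGF. It read 5.47 and 5.84 against 6.13 and 6.04 at 16 h, and 5.65 and 5.67 against 6.89 and 6.84 at 32 h. At these 3 hours, and in changes from 16 h, stimulus and hybridisation cannot be told apart here either. The F-test called 11 genes higher under IL-6, against 22.4% of all genes, and 4 lower, against 27.7%. At 24 h alone 19 genes were higher under IL-6, against 17.1% of all genes, and the median difference was 0.34, against -0.02 for all genes.

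Cdc20, the activator of the anaphase-promoting complex, read 9.61 and 9.55 under IL-6 at 24 h against 8.73 and 8.92 under HGF (0.75 ± 0.15, adjusted p = 9.47e-05), a fold of 1.69. Cenpe, the kinetochore motor, read 7.28 and 7.18 against 6.59 and 6.35 (0.75 ± 0.17, adjusted p = 0.00509). Kif23 read 7.45 and 7.31 against 6.80 and 6.66 (0.65 ± 0.13, adjusted p = 2.79e-05). In each of these the IL-6 arrays lay above the HGF ones by more than either pair differed. Bub1b, the checkpoint protein BUBR1, read 6.77 and 6.82 against 6.29 and 6.02 (0.64 ± 0.14, adjusted p = 0.000133), Kif20a 7.20 and 7.22 against 6.80 and 6.47 (0.58 ± 0.15, adjusted p = 0.00622), Racgap1 7.95 and 7.84 against 7.46 and 7.25 (0.54 ± 0.12, adjusted p = 0.00308) and Ncapd2 6.52 and 6.45 against 6.13 and 5.86 (0.49 ± 0.13, adjusted p = 0.000895). Mki67 was 0.57 ± 0.16 higher (adjusted p = 0.00719). Pttg1 was the exception among the strongly called genes, with 11.38 and 11.40 under IL-6 at 32 h against 11.64 and 11.67 under HGF (-0.27 ± 0.05, adjusted p = 2.57e-07), and it was lower under IL-6 at 8 and 24 h as well. Ccna2, Cdk1, Plk1, Top2a and Foxm1 did not pass (adjusted p = 0.511, 0.75, 0.19, 0.527 and 0.437).

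The 19 genes at 24 h were 14 without replicate 1 of IL-6, the array with the strong 3′ excess, and 7 without replicate 2 of HGF, the lower HGF array. Without that HGF array 8 genes passed the F-test in place of 15, and Racgap1, Cenpe, Kif20a and Mki67 did not (adjusted p = 0.0836, 0.0961, 0.0901 and 0.0593). Without replicate 1 of IL-6 at 24 h Racgap1 and Cenpe did not pass (adjusted p = 0.0517 and 0.0566). At 32 h 1 gene was higher under IL-6, against 12.2% of all genes, and the HGF arrays decided the direction there: 18 genes were higher under IL-6 without HGF replicate 1 and 10 were lower without replicate 2. The F-test then called 26 and 29 genes. Calls of Ncapd2 and Racgap1 (adjusted p = 0.18 and 0.0539), Nek2 and Bub3 were lost with the mean over all probe sets.

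IL-6 plus HGF against HGF, which asks what IL-6 adds to HGF, gave 5 genes lower, against 19.3% of all genes, and 2 higher, against 17.6%. From 8 h on bioB read 5.30 to 5.76 with both and 5.86 to 6.89 under HGF. Stimulus and hybridisation therefore cannot be told apart in this comparison at any of these hours. Pttg1 read 11.17 and 11.07 with both at 8 h against 11.34 and 11.35 under HGF (-0.23 ± 0.05, adjusted p = 5.13e-05). Kif23 was lower at that hour too, with 6.21 and 6.18 against 6.64 and 6.69 (-0.47 ± 0.13, adjusted p = 0.0186). For both genes the values under both stimuli were close to those under IL-6 alone, which were 11.17 and 11.06 for Pttg1 and 6.24 and 6.24 for Kif23. Aurkb read 6.30 and 6.40 at 24 h against 5.90 and 5.91 under HGF (0.45 ± 0.15, adjusted p = 0.0183), and Bub1b 6.44 and 6.55 against 6.29 and 6.02 (0.34 ± 0.14, adjusted p = 0.0325). Smc4, a condensin ATPase, was 0.32 ± 0.10 lower at 16 h (adjusted p = 0.0361). Ube2c, with 8.28 and 7.98 at 32 h against 9.25 and 8.22, and Birc5, with 6.74 and 6.57 against 7.74 and 6.66, were lower at 32 h, but without HGF replicate 1 their differences were -0.09 and -0.0023 (adjusted p = 0.546 and 0.371). The count of 7 was 11 and 19 without replicate 1 and 2 of HGF at 32 h, 4 without replicate 2 of HGF at 8 h, of HGF at 16 h or of both stimuli at 24 h, and 3 without replicate 2 of both stimuli at 32 h. Kif23 did not pass when any 1 of the 4 arrays at 8 h was left out (adjusted p = 0.0554 to 0.0926), and Aurkb did not pass without replicate 1 of HGF at 32 h, replicate 2 of both at 24 h or replicate 2 of both at 32 h (adjusted p = 0.0547, 0.0663 and 0.0507). Ube2c did not pass without replicate 2 of both at 32 h (adjusted p = 0.203). Bub1b did not without either HGF array at 16 h, replicate 2 of HGF at 24 or 32 h, replicate 2 of both at 16 or 24 h or either array of both at 32 h (adjusted p = 0.0521 to 0.108). Smc4 did not without replicate 2 of HGF at 8 or 16 h, replicate 1 of both at 8 h or either array of both at 16 h (adjusted p = 0.0606 to 0.218), and Birc5, at an adjusted p of 0.0475, was lost on leaving out any array of both, except replicate 2 at 16 h, or any of several HGF arrays (replicate 2 at 8 h, both at 16 h, replicate 2 at 24 h). With the mean over all probe sets Kif23 (-0.17, adjusted p = 0.563), Aurkb, Bub1b and Birc5 (adjusted p = 0.167, 0.14 and 0.0719) did not pass. With only the arms compared Kif23, Bub1b, Birc5 and Ube2c did not (adjusted p = 0.0589, 0.0786, 0.128 and 0.0764). Birc5 and Smc4 were also lost with median centring, without a variance trend or with robust variances, Birc5 with no filter and Bub1b with quantile normalization (adjusted p = 0.0501 to 0.104).

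IL-6 plus HGF against IL-6, which asks what HGF adds to IL-6, gave 6 genes lower, against 16.4% of all genes, and 33 that did not pass. The bioB values of these arms overlapped only at 16 h. They were 5.47 and 5.49 with both against 5.97 and 5.90 under IL-6 at 24 h, and 5.53 and 5.30 against 5.65 and 5.67 at 32 h. At 8, 24 and 32 h stimulus and hybridisation therefore cannot be told apart in this comparison. At 24 h Cdc20 read 9.06 and 9.14 with both against 9.61 and 9.55 under IL-6 (-0.48 ± 0.15, adjusted p = 0.00473) and Kif23 6.93 and 6.96 against 7.45 and 7.31 (-0.44 ± 0.13, adjusted p = 0.0146). Neither gene's groups overlapped. At 32 h Ccna2 read 6.48 and 6.41 against 7.02 and 7.04 (-0.59 ± 0.15, adjusted p = 0.00683), Mki67 7.28 and 7.04 against 7.68 and 7.67 (-0.52 ± 0.16, adjusted p = 0.0347), Kif2c 5.53 and 5.22 against 5.77 and 5.82 (-0.42 ± 0.16, adjusted p = 0.0373) and Prc1 7.35 and 7.11 against 7.60 and 7.64 (-0.39 ± 0.13, adjusted p = 0.044). The count was 3 without replicate 1 of IL-6 at 8 h, replicate 1 at 24 h, or either replicate at 32 h. Kif23 did not pass without replicate 1 of IL-6 or of both at 24 h (adjusted p = 0.0808 and 0.0556). Mki67, Kif2c and Prc1 did not pass without replicate 1 of IL-6 at 8 h, either IL-6 array at 32 h or replicate 2 of both at 32 h (adjusted p = 0.0561 to 0.21). Kif2c and Prc1 were also lost without either IL-6 array at 24 h, Kif2c without replicate 2 of both at 8 or 24 h, and Prc1 without replicate 1 of both at 8 or 24 h (adjusted p = 0.0529 to 0.0853). Of the 6 calls 4 were lost with the mean over all probe sets: Kif23 (adjusted p = 0.12), Mki67 (0.0556), Kif2c with a difference of -0.12 (0.11) and Prc1 with -0.18 (0.75). Without a variance trend Kif2c, Mki67 and Prc1 did not pass (adjusted p = 0.0613, 0.0741 and 0.0834), Mki67 and Prc1 not with robust variances (0.081 and 0.0755), and Prc1 not with median centring (0.0548).

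The departure from additivity is the log2 effect of both stimuli over unstimulated cells less the sum of the effects of the single ones at the same hour. The arms it sets against each other differed in bioB, so that stimulus and hybridisation cannot be told apart here either. At 32 h the departure was negative for 39 of 39 genes, with a median of -0.41 against 0.02 for all genes. This rests on replicate 1 of HGF at 32 h: without it the departure was negative for 28 genes and positive for 11, with a median of -0.09, while without any other single array at 32 h it was negative for 37 to 39 genes, with medians of -0.74 to -0.33. The F-test called Prc1 (-0.76 ± 0.19, adjusted p = 0.0223) and Racgap1 (-0.63 ± 0.17, adjusted p = 0.028), against 8.28% of all genes called lower. At 32 h alone Ccna2, Cdk1, Birc5 and Kif23 were called as well, making 6 against 2.22% of all genes, and without replicate 1 of HGF or replicate 2 of both this count was 0, without replicate 2 of HGF 22, without replicate 1 or 2 of IL-6 3 and 2, without replicate 1 of both 7 and without replicate 1 or 2 of the unstimulated cells 2 and 4. Prc1 at 32 h read 7.35 and 7.11 with both, 7.83 and 7.18 under HGF, 7.60 and 7.64 under IL-6 and 7.14 and 7.14 without stimulus. Its level with both stimuli was thus below that with IL-6 and near the lower HGF array. Without HGF replicate 1 at 32 h neither gene passed (adjusted p = 0.244 for Prc1 and 0.201 for Racgap1), and without replicate 2 22 genes did. The count of 2 was also 0 without replicate 2 of IL-6, replicate 2 of both or either unstimulated replicate at 32 h, and 1 without replicate 1 of IL-6 at 32 h. It was 4 without replicate 2 of HGF at 24 h or replicate 1 of both at 8 h, 8 without replicate 1 of both at 16 h and 5 without replicate 1 of both at 32 h. Neither Prc1 (-0.52, adjusted p = 0.348) nor Racgap1 (-0.28, adjusted p = 0.196) passed with the mean over all probe sets, and Prc1 did not without a variance trend (adjusted p = 0.0524).

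The timing of the wave was compared as the change from 16 to 24 h, a contrast chosen after the group means were seen. Between these hours Cenpe and Cdc20 rose under IL-6 (19.0% of all genes), by 0.65 ± 0.17 and 0.51 ± 0.15 (adjusted p = 0.00291 and 0.00573), while 7 genes fell under HGF (14.7% of all genes) and 14 in unstimulated cells (16.5%). The unstimulated count was 15 with Pttg1, which rose, and 9 without replicate 2 at 24 h. The difference between arms was tested directly. The change from 16 to 24 h was larger under IL-6 than in unstimulated cells for 4 genes, against 2.25% of all genes: Mad2l1 (0.54 ± 0.12, adjusted p = 0.00456), Ndc80 (0.77 ± 0.22, 0.0439), Kif2c (0.83 ± 0.23, 0.0281) and Racgap1 (0.57 ± 0.17, 0.0468). Ndc80 encodes the kinetochore's microtubule coupler. The sign was positive for 37 of 39 genes, with a median of 0.47 against 0.0026 for all genes. For HGF against unstimulated cells limma called 0 genes here, and 2 had an unadjusted p under 0.05.

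With both stimuli against unstimulated cells 3 genes passed this test, against 3.28% of all genes: Mad2l1 (0.44), Cenpa (0.64) and Kif2c (0.69), with a median of 0.35. Against HGF, the change under IL-6 was larger for Cenpe (0.84), Kif23 (0.59), Prc1 (0.61) and Smc4 (0.49), 4 genes against 7.70% of all genes, with a median of 0.37. These counts are small and unsteady. The 4 genes of IL-6 against unstimulated cells were 0 without IL-6 replicate 1 at 16 h or unstimulated replicate 2 at 24 h, 1 without either IL-6 array at 24 h or unstimulated replicate 2 at 16 h, 2 without unstimulated replicate 1 at 24 h and 7 without IL-6 replicate 2 at 16 h. The 3 of both stimuli were 0 without replicate 1 at 16 h or unstimulated replicate 2 at 24 h, 1 without replicate 2 at 24 h or unstimulated replicate 2 at 16 h, and 5 without replicate 2 at 16 h. The 4 of IL-6 against HGF were 0 without HGF replicate 2 at 16 h, and 1 without HGF replicate 2 at 24 h or replicate 1 of IL-6 at 16 or 24 h. From 24 to 32 h the change was larger under HGF than in unstimulated cells for Ccnb2 (0.89), Nek2 (0.59), Kif23 (0.60) and Racgap1 (0.62), against 3.22% of all genes. That count was 0 without HGF replicate 1 at 32 h, 23 without replicate 2, 2 without HGF replicate 2 or either unstimulated array at 24 h, and 1 without unstimulated replicate 1 at 32 h.

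**Figure D5:**
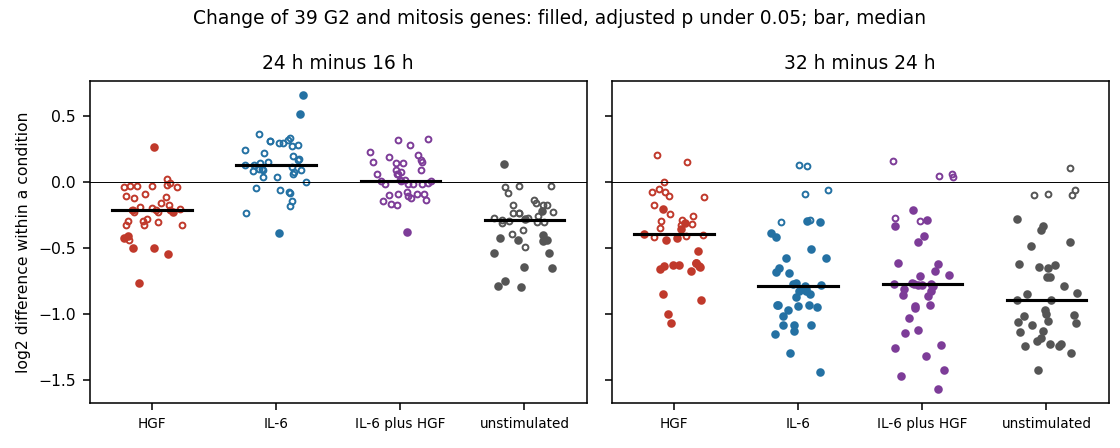
Change of each of the 39 genes from 16 to 24 h and from 24 to 32 h in the 4 arms (points, log2, filled where the adjusted p is under 0.05), with the median as a bar. From 16 to 24 h the medians are -0.21 under HGF, 0.12 under IL-6, 0.01 under both and -0.29 without stimulus, and from 24 to 32 h all 4 are negative.

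Between arms, 10 of the 39 genes passed none of the 6 comparisons by F-test, where 28.9% of all genes passed none: Cdc25b, Cdc25c, Plk1, Bub1, Nuf2, Incenp, Tpx2, Top2a, Espl1 and Foxm1.

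Other genes of the same machinery were counted in the comparisons with unstimulated cells, in which 27.2% of all genes were higher and 27.9% lower with HGF, 18.7% and 23.3% with IL-6, and 28.5% and 28.7% with both. Of 66 further mitosis genes tested, 18 were higher and 21 lower with HGF, 8 and 11 with IL-6, and 14 and 20 with both. That is 27.3% and 31.8% with HGF, close to the shares of all genes, 12.1% and 16.7% with IL-6, and 21.2% and 30.3% with both. Cenpp, a kinetochore protein, averaged 4.97 with both stimuli at 16 h against 6.08 in unstimulated cells (-1.11 ± 0.15, adjusted p = 2.55e-11), and it was lower by 0.91 with HGF and 0.70 with IL-6. Spc24, of the NDC80 complex, was 0.78 ± 0.14 lower with both at 16 h (adjusted p = 5.69e-08). The CDK1 accessory subunits Cks1b and Cks2 were higher, by 0.34 ± 0.06 at 8 h and 0.36 ± 0.05 at 24 h (adjusted p = 8.34e-09 and 2.03e-08). Of 16 condensin and cohesin partners 9 were higher and 3 lower with both, 7 and 2 with HGF and 5 and 0 with IL-6, or 56.2% and 18.8%, 43.8% and 12.5%, and 31.2% and none. Among them Ncapd3, Stag1, Esco1 and Wapl were higher with both at 16 h, by 0.54 ± 0.12, 0.49 ± 0.05, 0.44 ± 0.06 and 0.37 ± 0.04. Ncapd3 belongs to condensin II and the other 3 to cohesin and its regulators.

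Of 17 subunits of the anaphase-promoting complex, 4 were higher and 8 lower with HGF, 0 and 8 with IL-6, and 2 and 6 with both. The lower ones made up 47.1% with HGF, 47.1% with IL-6 and 35.3% with both, against 27.9%, 23.3% and 28.7% of all genes. Anapc2 and Anapc13 were 0.54 ± 0.06 and 0.46 ± 0.05 lower with HGF at 16 h (adjusted p = 2.91e-13 and 3.58e-13), Anapc4 was 0.41 ± 0.05 lower with both at 32 h and Anapc16 0.33 ± 0.04 higher with HGF at 24 h. Of 20 regulators of the DREAM, MuvB, MYB and E2F class, 9 were higher and 5 lower with HGF, 4 and 4 with IL-6, and 8 and 5 with both. The higher ones made up 45% with HGF, 20% with IL-6 and 40% with both, against 27.2%, 18.7% and 28.5% of all genes, and the lower ones 25%, 20% and 25%, against 27.9%, 23.3% and 28.7%. E2f6, a repressor, was 0.56 ± 0.06 lower with both at 8 h, while E2f3 and the E2F partner Tfdp1 were 0.55 ± 0.08 and 0.35 ± 0.05 higher at 16 and 24 h. Mybl1, A-MYB, was 0.66 ± 0.11 lower with HGF at 24 h and 0.51 ± 0.11 higher with IL-6 at 8 h.

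Among 16 brakes on CDK1 and G2, 3 were higher and 8 lower with HGF, 5 and 5 with IL-6, and 4 and 10 with both. The lower ones made up 50% with HGF, 31.2% with IL-6 and 62.5% with both, against 27.9%, 23.3% and 28.7% of all genes, and the higher ones 18.8%, 31.2% and 25%, against 27.2%, 18.7% and 28.5%. Wee1, the kinase that holds CDK1 inactive, averaged 6.997 with both stimuli at 8 h, 7.37 with IL-6 and 8.17 in unstimulated cells, and the differences were -1.18 ± 0.08 and -0.81 ± 0.08 (adjusted p = 4.11e-20 and 2.67e-15). With HGF it was 0.66 ± 0.08 lower at 16 h. Gadd45g, a stress protein that inhibits the CDK1 complex, averaged 8.72 with IL-6 at 32 h against 6.66 in unstimulated cells (2.06 ± 0.13, adjusted p = 1.01e-24), and 8.29 with both (1.64 ± 0.13). Gadd45a was 1.02 ± 0.09 higher with HGF and 0.90 ± 0.09 higher with both at 16 h, and Btg2, an antiproliferative protein, 0.64 ± 0.06 lower with HGF at 24 h. This list held members moving in both directions, Wee1 down and the Gadd45 genes up, in the same cultures.

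Genes of DNA replication, the step before G2, were set beside the 39 as a comparison. The genes of G2 and mitosis gave 7 higher and 12 lower with HGF, 12 and 10 with IL-6, and 4 and 18 with both, where of 43 replication genes 26 were higher and 8 lower with HGF, 16 and 12 with IL-6, and 22 and 13 with both. The replication genes that were higher made up 60.5% with HGF, 37.2% with IL-6 and 51.2% with both, against 27.2%, 18.7% and 28.5% of all genes, and those that were lower 18.6%, 27.9% and 30.2%, against 27.9%, 23.3% and 28.7%. Slbp, which binds histone messages, was 0.47 ± 0.06 higher with HGF at 8 h and with both at 24 h (adjusted p = 1.11e-12 and 3.39e-13), Orc2, of the origin recognition complex, 0.48 ± 0.06 higher with HGF at 24 h and Ccne1, cyclin E1, 0.54 ± 0.08 higher with both at 32 h. Tk1, thymidine kinase, was 1.31 ± 0.12 lower with both at 16 h (adjusted p = 5.63e-16). The median difference from unstimulated cells with HGF was -0.29 at 16 h and -0.17 at 24 h for the genes of G2 and mitosis, and 0.13 at 16 h and 0.21 at 24 h for the replication genes. The difference between the 2 lists was not tested.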

How the data were processed

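Affymetrix Mouse430_2 arrays were hybridised with biotin-labelled RNA, 1 sample per array and 1 colour. The values are log2 intensities per probe set as deposited by the authors in 1 table. Their summarisation and normalization are not named by the sources at hand, and array medians of 4.88 to 4.97 show that arrays had been brought to a common level. Of 45101 probe sets, 34958 carry 1 gene symbol, 932 several and 9211 none in the platform annotation, and only the first kind was named.

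Each of 18194 genes was read through its probe set with the highest mean, and the 14513 genes above an array's 40th percentile on at least 2 arrays were tested. A linear model of 29 group means over 60 arrays (31 residual degrees of freedom) was fitted by limma (version 3.58.1, under R 4.3.3) with a variance trend. F-tests ran over 8, 16, 24 and 32 h, or over the later hours against 8 h, with Benjamini-Hochberg adjustment over all 14513 genes and a threshold of 0.05. Single hours were adjusted over genes within that hour, and a direction is that of the hour with the largest difference. Errors after ± are standard errors from the fit, with 2 arrays a group, and precision is limited by that number. The series' design text speaks of biological triplicates, but 2 arrays a group were analysed here. Nothing ties single arrays to separate animals, so a p-value here weighs a difference against array-to-array scatter that may be technical.

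The members and all lists were chosen with earlier results of these data known. Values are given for members that pass the F-test, up to 8 a comparison by smallest p, and always for Cdk1, Mki67, Top2a, Foxm1, Plk1 and Ccna2, and of each other list up to 4 genes are named. Replicate numbers do not pair the arrays: the correlation of residuals for arrays sharing a number ran between -0.269 and 0.252 over 378 pairs of groups, with a median of -0.00044. In data simulated for HGF against unstimulated cells with 14513 genes, the test recovered 43 of 50 genes changed 1.3-fold. It recovered all 50 at each of 1.5-, 2- and 3-fold, and called 7 of 14313 unchanged ones. Recovery of a change at a single hour was not measured. Nor was recovery with as many changed genes as were called in the real comparison, 27.2% higher and 27.9% lower. Promoters were RefSeq windows searched on both strands, in Python 3.11.15, and figures were drawn with matplotlib 3.10.9. Alternatives were quantile normalization, median centring, other filters, the compared arms only, a replicate block, other variance settings and leaving out each array. A further one was the mean over all probe sets of a gene, those failing the filter included.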

Additional observations from a re-analysis of the deposited data

Results flagged for a closer look

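Of the 39 genes, 2 had a lone value among the 4 unstimulated arrays at 0 h: the gap to the nearest other array took 0.935 of the range for Cenpf and 0.93 for Incenp, above Dixon's critical value for 4 arrays. At that value chance alone flags about 1 gene in 20, so that 2 of 39 is near what chance gives.

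Differences between arms in the change over time that passed limma's test were listed for a closer look, as log2 values. From 16 to 24 h, IL-6 minus unstimulated, they were 0.54 for Mad2l1, 0.77 for Ndc80, 0.83 for Kif2c and 0.57 for Racgap1. For IL-6 plus HGF minus unstimulated they were 0.44 for Mad2l1, 0.64 for Cenpa and 0.69 for Kif2c. For IL-6 minus HGF they were 0.84 for Cenpe, 0.59 for Kif23, 0.61 for Prc1 and 0.49 for Smc4. From 24 to 32 h, HGF minus unstimulated, they were 0.89 for Ccnb2, 0.59 for Nek2, 0.60 for Kif23 and 0.62 for Racgap1, none of them called without replicate 1 of HGF at 32 h.

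The departure from additivity at 32 h was -0.76 for Prc1 and -0.63 for Racgap1 in the F-test, and at that hour alone also -0.74 for Ccna2, -0.68 for Cdk1, -0.76 for Birc5 and -0.60 for Kif23.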

How the results depend on the processing

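Of the settings tried for single named genes, 148 lost the call, 42 gained one, 0 turned the direction of a called difference and 2895 counted as unchanged. The unchanged ones include turns of direction in genes that were not called, such as Top2a with HGF at 32 h without replicate 1. Counts of the 39 genes moved by over 1.5 times as follows, with the cause not tested. With quantile normalization additivity had 8 calls, the change from 16 to 24 h had 6 for both stimuli and 1 for HGF against unstimulated cells. With median centring 5 genes were higher with HGF at 32 h, and 1 changed from 16 to 24 h with both stimuli. With no filter 2 changed from 16 to 24 h with IL-6, and with a filter at the 60th percentile additivity had 5 calls and the HGF change from 24 to 32 h had 7. With the mean over all probe sets 3 genes were higher with HGF at 32 h, 3 differed between both stimuli and HGF, 1 changed from 16 to 24 h with both, and 2 changed from 24 to 32 h with HGF. With only the compared arms 9 were higher with IL-6 at 24 h, 3 differed between both and HGF, and 11 (IL-6) and 6 (both) changed from 16 to 24 h. Without a variance trend these were 4 with HGF at 32 h, 3 with IL-6 at 24 h, 3 for both against IL-6, 1 for additivity, and 1 each for IL-6 and both from 16 to 24 h.

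Leaving out 1 array gave 16 to 32 calls for HGF against unstimulated, 4 to 17 lower at 16 h and 1 to 25 higher at 32 h. It gave 11 to 24 for IL-6, 5 to 12 lower at 16 h, 1 to 6 higher at 24 h and 4 to 10 at 32 h, and 14 to 27 for both, with 7 to 24 lower at 16 h. It gave 3 to 19 for both against HGF, 3 to 8 for both against IL-6, 8 to 29 for IL-6 against HGF (7 to 20 higher at 24 h) and 0 to 22 for additivity. Changes from 16 to 24 h gave 0 to 7 for IL-6, 0 to 5 for both, 0 to 1 for HGF and 0 to 6 for IL-6 against HGF, and that from 24 to 32 h for HGF gave 0 to 23. Calls from 24 to 32 h under HGF were 6 to 32, and from 16 to 24 h in unstimulated cells 9 to 13, all below the 15 with all arrays.

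With the replicate number as a block, HGF, IL-6 and both against unstimulated cells had 19, 21 and 22 calls, both against HGF 7, both against IL-6 5, IL-6 against HGF 14 and additivity 2. Mki67 with IL-6 (adjusted p = 0.0538) and Prc1 for both against IL-6 (0.0516) were lost, and the numbers do not pair the arrays.

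Of 34 other probe sets of the measured genes that passed the filter, 25 had the sign of the chosen one for 16 h minus 8 h in unstimulated cells. Of the 9 that did not, 5 turned a called difference: Bub1b (-0.0266), Incenp (-0.10), Nek2 (-0.21), Top2a (-0.0176) and Tpx2 (-0.13). For HGF minus unstimulated cells at 16 h 27 had the same sign, and 7 did not: Bub3 (-0.50 against 0.03 for the chosen one), Cenpf (0.14 against -0.62), Incenp (0.03 against -0.24), Kif11 (0.06 against -0.22), Ncaph (0.17 against -0.06), Smc4 (-0.07 against 0.27) and Top2a (0.15 against -0.04). Genes near the 40th percentile, such as Cdc25b, are limited by signal over background.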
